A study of Oryza sativa with 44 samples.

Results

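The loci described here had at least 3 CPM (the count scaled to a library total of 1000000) in each of 3 libraries of the wild type rice labelled DJ and at most 3 counts in each of 3 libraries of the wild type labelled NIP. There were 184 of them among 55801 rows with a rice locus ID, in a table of 58089 rows. The rule left out 1 locus of chromosome 2 and 3 segments of locus IDs on chromosomes 6, 11 and 12, and with them the number would have been 198. RNA came from seedlings (Oryza sativa) kept in nutrient solution until 2 weeks of age, and the labels name no organ. The 44 libraries form 15 groups, namely the wild types DJ and NIP and 13 lines altered in genes of the YTH family. Of the lines, osythdf1a, osythdf2a and osythdf3a carry the label DJ. Those labelled NIP were osythdf1b, osythdf1c, osythdf2b, osythdf3b, osythdf3c, osythdf4c, osythdf5c, RNAi-OsYTHDF2C, RNAi-OsYTHDC1A and OE-OsYTHDF1A. The series text lists 10 CRISPR knockouts, 2 knockdowns and 1 overexpressor, which by their names are the osythdf, RNAi and OE lines. Each group had 3 libraries except osythdf2a, with 2. The number of independent transformants behind a line is not given, so a line stands for itself and not for its target gene.

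YTH proteins bind adenosines that carry a methyl group in messenger RNA and act as readers of that mark, in the nucleus or in the cytoplasm depending on the family member. Cultivars of rice differ in which loci they carry intact and in which they transcribe, so a wild type serves as the control for lines of its own background. The reference build IRGSP-1.0 was assembled from Nipponbare, the cultivar named in the series title. The files do not pair the locus IDs with gene names, so the loci are described by ID only and no role is given to any of them. The transcripts of the targeted YTH genes are not analysed here for the same reason.

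The DJ and NIP wild type values chose the loci, so the contrast between those wild types is a description. Mean CPM in DJ ran from 3.17 to 157 with a median of 6.73. Corrected for length, as the deposited FPKM, which also divide by gene length, the DJ levels had a median of 4.67 and a range of 0.716 to 193, against a median of 12.8 over all 18412 rows at 3 CPM or more in each DJ library. In NIP, 35 loci had no count in any library. The highest NIP count was 1 for 55 loci, 2 for 44 and 3 for 50. Just inside the DJ limit stood LOC_Os05g18750 and LOC_Os12g05220, each with a lowest DJ value of 3.05 CPM. Just outside it stood LOC_Os07g40020 at 2.99 CPM and LOC_Os06g21570 at 2.91 CPM. A further 211 rows met the DJ limit with a highest NIP count of 4 to 10, and 51 rows met the NIP limit with a lowest DJ value of 2 to 3 CPM.

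A locus is called on in a group if every library had at least 1 CPM, off if every library had at most 3 counts, and between otherwise. The RNA is of whole samples, in which fewer cells with a transcript and less of it per cell cannot be told apart. Lines labelled with the same background differed widely. Among lines labelled NIP, 136 of the 184 loci were on in RNAi-OsYTHDC1A, 127 in osythdf1b, 122 in osythdf3c and 89 in osythdf4c. In the other 6 the number on was 8 in osythdf3b, 12 in OE-OsYTHDF1A, 16 in osythdf5c, 18 in osythdf1c, 20 in osythdf2b and 21 in RNAi-OsYTHDF2C. Among lines labelled DJ, 176 were on in osythdf2a, 65 in osythdf3a and 53 in osythdf1a. Thus, at the limit of 1 CPM, 4 lines labelled NIP carried more of the DJ-type loci on than 2 lines labelled DJ did. For osythdf4c this depended on the limit. With on set at 3 CPM its share was 17.4%, under 25% in osythdf3a and 21.2% in osythdf1a. Over the loci with no NIP count it was 28.6%, against 42.9% and 37.1% in that order.

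Off calls ran the other way, from 130 loci in osythdf3b and 127 in OE-OsYTHDF1A to 32 in RNAi-OsYTHDC1A and 2 in osythdf2a. Many loci were neither on nor off in osythdf2b (93), osythdf3a (84) and RNAi-OsYTHDF2C (78). Replicate libraries gave like pictures: across all lines, 1 locus was at 1 CPM or more in some libraries of a line and at no more than 3 counts in another, in osythdf5c. The median coefficient of variation over loci with a line mean of 3 CPM or more lay between 4.33% and 16.3% per line.

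**Figure D1:**
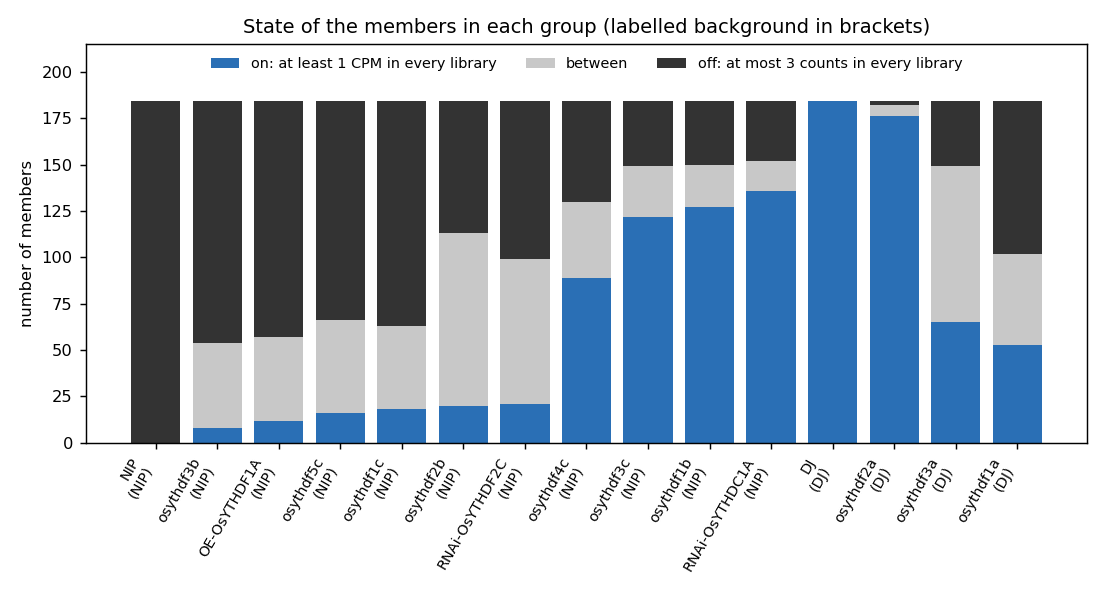
Number of the 184 loci (vertical axis) that were on, between or off in each of 15 groups (horizontal axis, labelled background in brackets). DJ and NIP are at 184 on and 184 off because they chose the loci, and among the lines osythdf2a is the highest with 176 on and osythdf3b the lowest with 8.

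Some properties of whole libraries moved with these counts. The share of all locus rows that were on was 39.1% in RNAi-OsYTHDC1A, 38.5% in osythdf3c, 38.2% in osythdf1b and 37.6% in osythdf4c, against 34.5% to 37.0% in the other lines labelled NIP. It was 40.2% in osythdf2a, 35.0% in osythdf3a and 34.7% in osythdf1a. Of 29482 locus rows with at most 3 counts in each NIP library, 1.27% were on in RNAi-OsYTHDC1A, 1.06% in osythdf1b, 1.04% in osythdf3c and 0.594% in osythdf4c, against 0.136% in osythdf3b. The 10 most abundant genes held 16.3% of the counts of osythdf3a replicate 3, and without that library 20.1% of the loci were off in the line instead of 19.0%. The part of these properties in the results was not tested. Library totals lay between 13541543 and 24099581 counts.

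The mirrored class, at 3 CPM or more in each NIP library and at most 3 counts in each DJ library, held 86 loci. Of these, 48 to 72 were on in the lines labelled NIP, with 48 in osythdf1b, 53 in RNAi-OsYTHDC1A and 54 in osythdf3c. For the DJ label the numbers on were 9 for osythdf2a and 5 each for osythdf1a and osythdf3a. The 3 NIP-labelled lines with many DJ-type loci on thus also had most NIP-type loci on.

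The loci that were on in osythdf3c, osythdf1b and RNAi-OsYTHDC1A were largely shared. All 3 lines had 114 loci on together, and 41 loci were on in none of them. Of the rest, 10 were on in RNAi-OsYTHDC1A without the other pair, 3 in osythdf1b and 2 in osythdf3c. No locus was on in osythdf3c and in no other NIP-labelled line. Of the 114, 112 were also on in osythdf2a, but 11 in osythdf1a and 20 in osythdf3a. In osythdf4c, 84 of its 89 loci were on in all 3 of those lines and 2 were on in none of them. These sets were formed after the states were seen, so they carry no test.

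The largest set, of 94 loci, was on in osythdf3c, osythdf1b and RNAi-OsYTHDC1A and in none of the 6 NIP-labelled lines other than osythdf4c. Its summed level in DJ was 978 ± 17.6 CPM (SD, n = 3) and in NIP 3.87 ± 0.466 CPM (SD, n = 3). The sum was 810 ± 6.05 CPM in osythdf1b, 754 ± 9.11 CPM in RNAi-OsYTHDC1A and 702 ± 20.6 CPM in osythdf3c (SD, n = 3 each). No library of these 3 lines reached the lowest DJ library, and each was far above every NIP library. In osythdf4c the sum was 236 ± 2.28 CPM (SD, n = 3), and 67 of the 94 loci were on there. In osythdf2a the libraries held 509 and 535 CPM and 92 loci were on. In osythdf3a and osythdf1a the sums were 54.8 ± 6.44 and 14.5 ± 1.01 CPM (SD, n = 3 each), with 9 loci and 1 locus on. The remaining lines ran from 6.74 CPM in osythdf3b to 27.7 CPM in osythdf2b, still above the highest NIP library at 4.27 CPM.

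**Figure D2:**
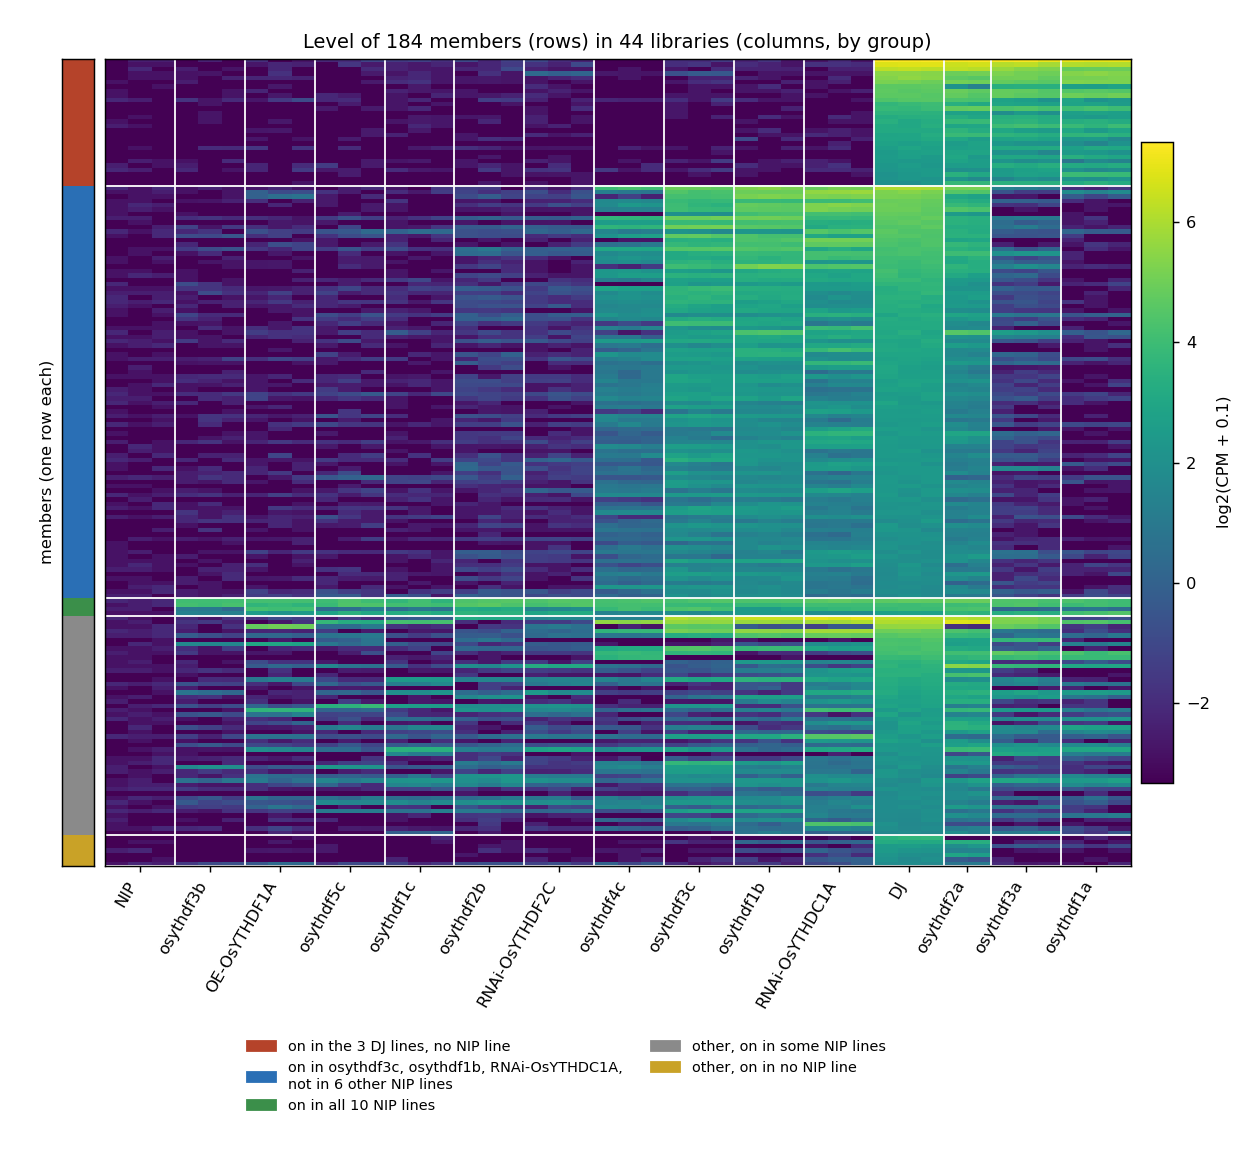
Level of each of the 184 loci (rows) in 44 libraries (columns, by group) as log2(CPM + 0.1), with loci grouped by their pattern over the lines (colour bar at left). The 94 loci of the blue block are high in osythdf3c, osythdf1b, RNAi-OsYTHDC1A, DJ and osythdf2a, weaker in osythdf4c and low elsewhere, while the 29 of the red block are high in the 4 groups labelled DJ.

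LOC_Os03g52320, the locus of this set with the highest mean CPM in DJ among those also on in osythdf4c, showed the steps. It had 66.0, 66.8 and 62.2 CPM in DJ and 0.126, 0.0431 and 0.132 CPM in NIP. It had 39.0, 42.8 and 36.9 CPM in osythdf1b, 29.2, 35.5 and 33.4 CPM in RNAi-OsYTHDC1A, and 30.5, 29.7 and 25.7 CPM in osythdf3c. The osythdf1b libraries lay above those of the other pair, and RNAi-OsYTHDC1A and osythdf3c overlapped. In osythdf4c it had 15.6, 19.2 and 16.7 CPM, in osythdf2a 34.6 and 35.4 CPM, and in osythdf3a 2.39, 1.97 and 1.54 CPM. In all other lines, osythdf1a among them, no library was above 0.289 CPM. The osythdf4c libraries thus stood apart both from the higher lines and from the rest.

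LOC_Os04g11050 and LOC_Os04g11120, the ends of a run of 3 loci of the set that span 8 locus rows of chromosome 4, had the pattern without osythdf4c. LOC_Os04g11050 had 38.8, 36.9 and 38.1 CPM in RNAi-OsYTHDC1A, 35.4, 38.9 and 36.9 CPM in osythdf1b and 17.4, 17.3 and 18.2 CPM in osythdf3c. Its osythdf4c values were 0.121, 0.301 and 0.0993 CPM. DJ, at 36.1, 35.6 and 32.8 CPM, was near the first 2 of these lines. LOC_Os04g11120 had 33.6, 33.4 and 33.4 CPM in RNAi-OsYTHDC1A, above DJ at 21.2, 19.2 and 21.0 CPM, and 0 to 0.0501 CPM in osythdf4c.

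The levels of the 94 loci were compared between pairs of the 3 lines. Every RNAi-OsYTHDC1A library was above every osythdf3c library for 36 loci and below for 49, with overlap for 9. Over 22502 locus rows on in either line, the same held for 40.8% and 36.3%. The median ratio of osythdf1b to osythdf3c CPM over the 94 loci was 1.02. Every osythdf1b library was above every osythdf3c library for 33 of the 94 loci and below for 27, with overlap for 34, against 32.5% and 33.9% of the locus rows on in either line. The counts of this pair were near those shares, which is not a result about the loci. Every RNAi-OsYTHDC1A library was above every osythdf1b library for 28 loci and below for 56, with overlap for 10. Over the locus rows on in either of that pair the shares were 37.9% and 34.3%. Between RNAi-OsYTHDC1A and osythdf3c, among the 67 loci also on in osythdf4c the numbers were 20 above and 43 below, and among the other 27 they were 16 above and 6 below. Across the 94 loci, the line means on the log2(CPM + 0.1) scale had a Pearson r of 0.85 between osythdf3c and osythdf1b, 0.70 between osythdf1b and RNAi-OsYTHDC1A and 0.43 between osythdf3c and RNAi-OsYTHDC1A. It was 0.04 between RNAi-OsYTHDC1A and osythdf4c. These are descriptions across loci that share libraries and were selected as on in the 3 lines.

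The line libraries did not enter the choice of loci, so the lines were tested against each other. Each NIP-labelled line was set against the mean of the other 9 on the log2 scale by the quasi-likelihood test of edgeR. Calls were made at a Benjamini-Hochberg adjusted p under 0.05. A mean of log2 levels is pulled down by lines near 0, so these differences can exceed those from the mean CPM. LOC_Os04g11120 had 33.5 CPM in RNAi-OsYTHDC1A against a mean of 3.46 CPM in the other 27 libraries, with a fitted log2 difference of 7.88. Of the 184 loci, 153 had enough counts to be tested. This is a filter that a locus passes through the lines in which it is high, so the counts over tested loci are descriptions. In RNAi-OsYTHDC1A 138 loci were higher and 5 lower, where 37.1% and 32.1% of the 27425 rows tested were called higher and lower (the background). In osythdf3c 132 were higher and 6 lower (background 40.9% and 36.6%), and in osythdf1b 130 were higher and 8 lower (background 37.8% and 33.8%). In osythdf4c 101 were higher and 18 lower (background 37.9% and 33.5%). Set against all 184 loci, the higher calls made up 75%, 71.7%, 70.7% and 54.9% in these 4 lines. The median log2 difference over the tested loci was 3.34 in RNAi-OsYTHDC1A, 3.75 in osythdf3c, 3.77 in osythdf1b and 1.87 in osythdf4c, where over all rows tested it was between 0.01 and 0.03.

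In the other 6 lines lower calls were the more frequent. In osythdf3b 88 loci were lower and 5 higher (background 36.4% and 36.7%), where the lower loci were 47.8% of all 184, and in OE-OsYTHDF1A 76 lower and 10 higher (background 32.6% and 33.2%), where they were 41.3%. In osythdf1c 74 were lower and 18 higher (background 31.2% and 36.4%), the lower ones 40.2% of the 184, and in osythdf5c 62 lower and 12 higher (background 27% and 30.4%), the lower ones 33.7%. In RNAi-OsYTHDF2C 54 were lower and 17 higher (background 27.9% and 30.8%). Its lower loci were 29.3% of the 184. Shares of the 184 count untested loci as not called, while the background is over rows tested only. No result about the loci is drawn from this line. In osythdf2b 42 were lower and 23 higher (background 25.4% and 30.2%), which were 22.8% and 12.5% of all 184 loci. These shares are not like for like with the background for the same reason, so no result is drawn from them. Lower here means lower than the mean log2 level of 9 lines that include those with the loci on, and the 10 comparisons share libraries. The replicates are called biological in the series text, and the p-values measure only the spread between these libraries.

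At some loci a NIP-labelled line exceeded DJ itself. LOC_Os03g49050 had 16.1, 15.4 and 15.4 CPM in osythdf3c, above DJ at 9.09, 8.99 and 9.10 CPM and above every other NIP-labelled library, of which the highest had 8.19 CPM. Its log2 difference from the other 9 lines was 5.83 (SE 0.13, edgeR quasi-likelihood test, Benjamini-Hochberg adjusted p = 5.18e-43). LOC_Os04g09390 had 33.4, 40.0 and 37.3 CPM in osythdf1b against 15.1, 14.2 and 15.9 CPM in DJ, 20.1, 21.3 and 22.1 CPM in RNAi-OsYTHDC1A and 0 in each NIP library. Its osythdf1b libraries did not overlap with any other, and its log2 difference in osythdf1b was 7.49 (SE 0.11, edgeR adjusted p = 3.98e-49).

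LOC_Os06g45030 was high in RNAi-OsYTHDC1A in particular, at 20.4, 20.2 and 18.6 CPM. DJ had 4.15, 3.07 and 3.23 CPM, osythdf3c 1.89, 1.63 and 2.27 CPM, and osythdf1b 1.28, 0.812 and 1.45 CPM. No other library of a NIP-labelled line exceeded 0.238 CPM. The log2 difference of RNAi-OsYTHDC1A from the other 9 lines was 8.65 (SE 0.18, edgeR quasi-likelihood test, Benjamini-Hochberg adjusted p = 2.76e-37). LOC_Os04g11120 followed in this line with a log2 difference of 7.88 (SE 0.12). LOC_Os04g23220 had 6.66, 6.01 and 6.08 CPM in osythdf3c and a log2 difference there of 5.49 (SE 0.20). LOC_Os04g45330 had 17.1, 18.0 and 18.6 CPM in osythdf1b and a log2 difference there of 6.43 (SE 0.13). Neither overlapped with the other NIP-labelled lines.

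A different set, of 29 loci, was formed as those on in all 3 DJ-labelled lines and in none of the 10 lines labelled NIP. Their summed level was 714 ± 7.77 CPM in DJ, 560 ± 6.38 CPM in osythdf1a and 574 ± 47.1 CPM in osythdf3a (SD, n = 3 each), and 661 and 678 CPM in the osythdf2a libraries. The lowest osythdf3a library was replicate 3, at 520 CPM against 604 and 599 CPM in the other two. The sum was 0.557 ± 0.192 CPM in NIP (SD, n = 3) and at most 3.38 CPM in any library of a NIP-labelled line. In osythdf3c, osythdf1b and RNAi-OsYTHDC1A, where the 94 loci were high, these 29 summed to 2.04, 1.30 and 1.23 CPM. Both sets were formed from the states of these lines, so their different separation of the lines is by construction and the sums are descriptions.

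**Figure D3:**
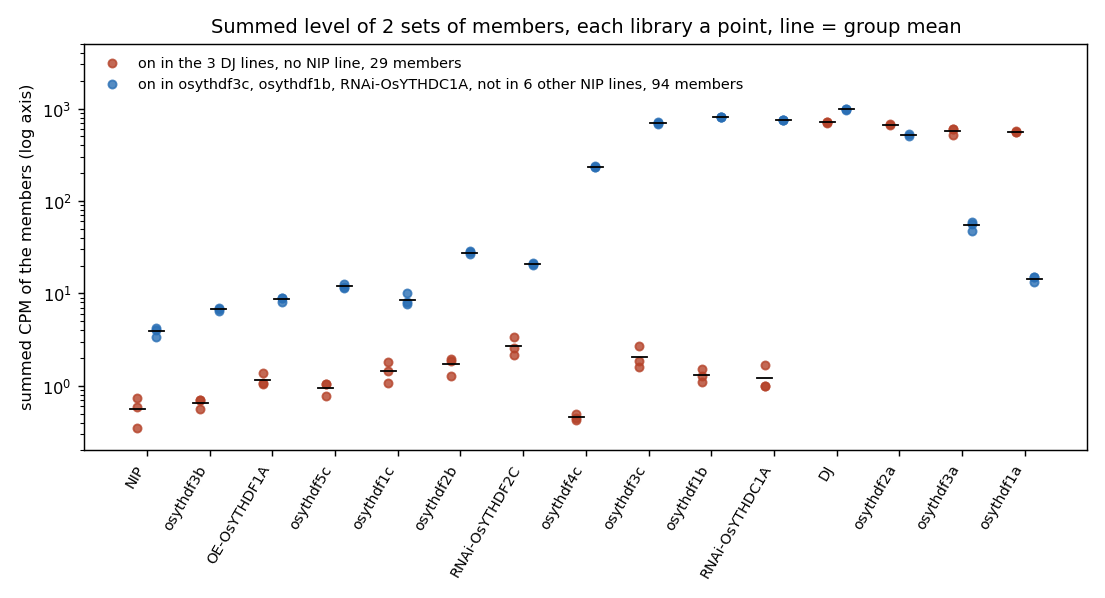
Summed CPM (log axis) of the 94 loci on in osythdf3c, osythdf1b and RNAi-OsYTHDC1A (blue) and of the 29 loci on in the DJ-labelled lines only (red), by group. Points are libraries and lines are group means; the red points lie between 520 and 720 CPM in every library labelled DJ and at or under 3.38 CPM in every library labelled NIP, and the blue points cross the labels.

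LOC_Os11g34824 and LOC_Os11g39940 belong to the 29 and had the highest mean CPM in DJ of all 184, a scale without length. LOC_Os11g34824 had 157, 155 and 157 CPM in DJ, 131, 124 and 127 CPM in osythdf1a, 156 and 161 CPM in osythdf2a, and 150, 153 and 130 CPM in osythdf3a. In NIP and the 10 lines labelled NIP no library exceeded 0.405 CPM. LOC_Os11g39940 had 109, 113 and 116 CPM in DJ, 88.5 and 97.4 CPM in osythdf2a, and 66.7 to 68.4 CPM in osythdf1a. Its 3 osythdf3a libraries held 71.0, 77.2 and 59.0 CPM. The DJ libraries lay above all libraries of the 3 lines for this locus, and no NIP-labelled library exceeded 0.410 CPM.

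With the libraries of each line summed to 1, the 3 lines labelled DJ were compared with the 10 labelled NIP, neither wild type entering. Of the 184 loci 32 were higher in the DJ-labelled lines and 0 were lower, which is 17.4% of them against a background of 1.6% higher and 1.98% lower over 29296 rows (edgeR quasi-likelihood test, adjusted p under 0.05). At an unadjusted p under 0.05 it was 43 loci in either direction, and DESeq2 called 35 higher and 0 lower. All 29 loci of the second set were among the 32, with log2 differences of 5.43 to 10.36, and none of the 94 was. The 29 were formed from the states of these same lines, so their count is a description. In the fits of the NIP-labelled lines, 1 of the 29 had enough counts to be tested. Nearly all of them thus passed the filter on low counts here through the DJ-labelled lines, where they were high. The 32 and their share of the 184 are therefore descriptions as well. Of the 3 called loci outside the 29, 2 were among 50 loci with mixed patterns. The last was among 7 loci that were on in no NIP-labelled line. Leaving out any 1 line gave 32 to 35 loci. The spread between lines within a label was wide, with a biological coefficient of variation of 58.5% against 4.70% between replicates of the NIP-labelled lines.

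LOC_Os12g22870 had the highest difference. It had 10.4, 8.70 and 7.65 CPM in osythdf1a, 8.10 and 5.33 CPM in osythdf2a and 7.98, 8.04 and 7.36 CPM in osythdf3a. The 30 libraries of the NIP-labelled lines held 2 counts in all, 1 in RNAi-OsYTHDF2C and 1 in osythdf2b. The fitted log2 difference was 10.36 (SE 0.60). The locus passed the filter on low counts through the DJ-labelled lines alone, so this is a description and no p is given. As a ratio of pooled CPM it was 2234, with an exact 95% counting interval of 617 to 18473. Intervals and floors cover counting error only.

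**Figure D4:**
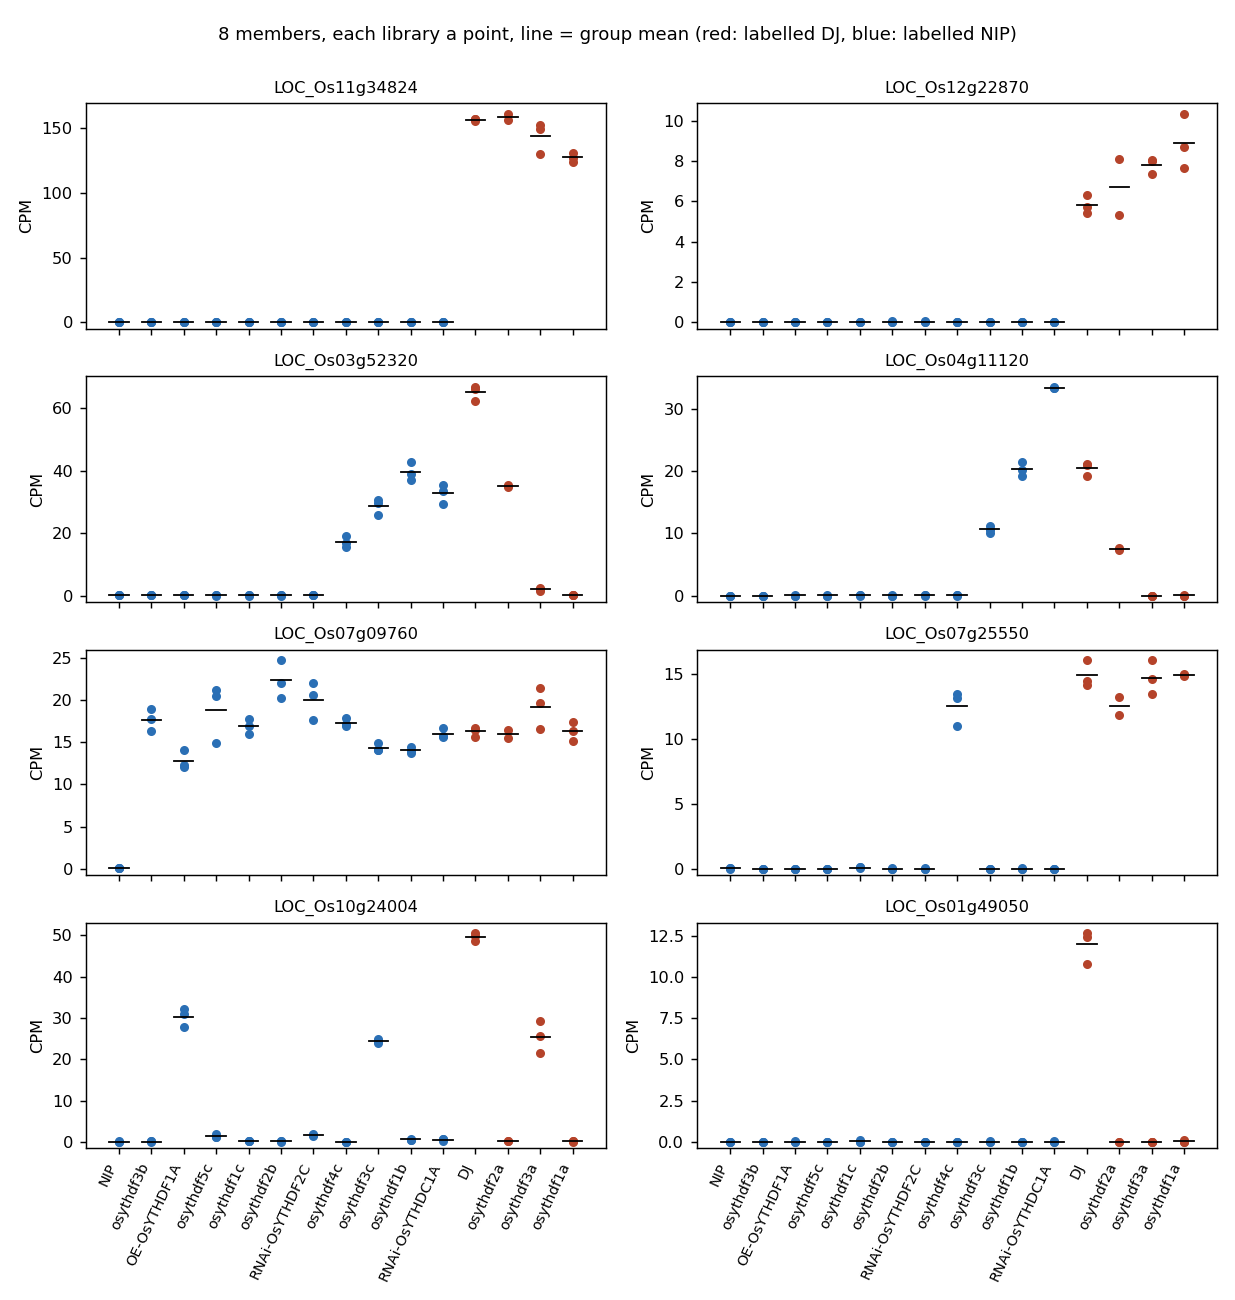
CPM of 8 loci in 15 groups, with each library a point, the group mean a line, and red for groups labelled DJ and blue for NIP. LOC_Os11g34824 and LOC_Os12g22870 are at or near 0 in all blue groups, LOC_Os03g52320 and LOC_Os04g11120 are high in osythdf3c, osythdf1b and RNAi-OsYTHDC1A, LOC_Os07g09760 is low in NIP alone, and LOC_Os01g49050 is high in DJ alone.

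Among the lines labelled DJ, osythdf2a stood nearest to the wild type. Its 2 libraries summed to 1849 and 1790 CPM over all 184 loci, against 2376 ± 13.7 CPM in DJ, 919 ± 76.0 CPM in osythdf3a and 754 ± 9.67 CPM in osythdf1a (SD, n = 3 each). In a fit of the 8 line libraries, with 182 of the 184 loci tested, osythdf1a was lower than osythdf2a at 147 loci and higher at 17 (background 39.5% and 35.8% of 26393 rows). A locus passes the filter on low counts through the lines in which it is high, for many of these loci osythdf2a. The counts and medians of this fit are therefore descriptions. The median log2 difference was -4.13 over the tested loci and -0.04 over all rows. In osythdf3a 142 loci were lower than in osythdf2a and 22 higher (background 36.7% and 34%), with a median of -2.63 against -0.03 over all rows. Between osythdf1a and osythdf3a, 85 loci were lower in osythdf1a and 22 higher (background 26.4% each way). Without osythdf3a replicate 3 the loci called in either direction were 164 in osythdf3a against osythdf2a and 106 between osythdf1a and osythdf3a, where the full fit gave 164 and 107.

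The loci that were low in osythdf1a and osythdf3a were mainly those of the set of 94. Of these, 93 were lower in osythdf1a and 92 in osythdf3a than in osythdf2a. Of the 29 loci on in the DJ-labelled lines, 6 and 4 were lower and 11 and 13 higher. Over all rows tested the shares were 39.5% and 36.7% lower and 35.8% and 34% higher. The 29 were defined as on in osythdf1a and osythdf3a too, so the contrast between the sets follows in part from how they were built. Of the 94, 92 were on in osythdf2a but 9 in osythdf3a and 1 in osythdf1a. Many of the 94 thus passed the filter on low counts through osythdf2a, and their counts are descriptions. LOC_Os01g22380, one of the 94, had 17.5, 13.2 and 14.4 CPM in DJ, 10.4 and 10.3 CPM in osythdf2a and no count in any osythdf1a library. Against a floor of 3 counts over the group, osythdf1a was at least 191-fold lower than osythdf2a. LOC_Os04g11120 had no count in osythdf3a and 7.40 and 7.71 CPM in osythdf2a, at least 133-fold lower on the same floor. Both loci passed the filter on low counts through osythdf2a, so these are descriptions with no p.

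Some loci went the other way. LOC_Os11g36800, on in the DJ-labelled lines only, had 6.42, 6.20 and 7.15 CPM in osythdf1a and 4.18 and 2.47 CPM in osythdf2a, while DJ had 25.1, 25.3 and 26.2 CPM. Its libraries did not overlap between the 2 lines, and the log2 difference was 1.37 (SE 0.17, edgeR quasi-likelihood test, Benjamini-Hochberg adjusted p = 2.70e-10). LOC_Os07g03920 had 15.3, 15.3 and 14.2 CPM in osythdf1a against 5.60, 6.81 and 6.38 CPM in osythdf3a and 4.27, 4.93 and 5.49 CPM in DJ. It was thus higher in osythdf1a than in any DJ library, and its log2 difference between osythdf1a and osythdf3a was 1.26 (SE 0.11).

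LOC_Os04g13000 separated osythdf1a from both other DJ-labelled lines. It had 13.2, 13.7 and 14.4 CPM in osythdf3a, 6.83 and 6.95 CPM in osythdf2a, and 0.108, 0 and 0 CPM in osythdf1a, which are 2 counts, both in replicate 1. The ratio of osythdf3a to osythdf1a was 380, with an exact 95% counting interval of 105 to 3144. The fitted log2 difference of osythdf1a from osythdf3a was -8.34, and -11.07 without osythdf1a replicate 1, where the remaining osythdf1a libraries held no count and the fitted value is no bound.

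Of the 184 loci, 4 were on in all 10 lines labelled NIP, and 3 of these were on in all 13 lines, so that the NIP wild type was the group that lacked them. LOC_Os07g09760 had 16.5, 15.6 and 16.7 CPM in DJ and 0.0420, 0.0861 and 0.132 CPM in NIP. In the 13 lines its libraries ran from 12 CPM in OE-OsYTHDF1A to 24.7 CPM in osythdf2b. LOC_Os12g01010 had 25.3, 27 and 26.9 CPM in DJ and at most 0.132 CPM in NIP, with 12 to 30.1 CPM in the libraries of the lines. For both loci the lowest library of any line was far above the highest NIP library. The 4 loci summed to 0.301 ± 0.00699 CPM in NIP (SD, n = 3) and to at least 36.9 CPM in every library of the 10 lines labelled NIP.

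LOC_Os01g49050 was the only locus off in all 13 lines. It had 10.8, 12.4 and 12.6 CPM in DJ, no count in NIP, and at most 0.113 CPM in any library of a line. Of the other loci, 1 was on in no line without being off in all of them. Altogether 7 loci were on in no NIP-labelled line and not on in all 3 DJ-labelled lines, and 5 of these were on in osythdf2a.

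The remaining 50 loci were on in some NIP-labelled lines in mixed combinations. Here 38 were on in RNAi-OsYTHDC1A, 29 in osythdf1b, 24 in osythdf3c, 18 in osythdf4c, 17 in RNAi-OsYTHDF2C, 16 in osythdf2b, 14 in osythdf1c, 12 in osythdf5c, 8 in OE-OsYTHDF1A and 4 in osythdf3b. In the DJ-labelled lines 46 were on in osythdf2a, 24 in osythdf3a and 19 in osythdf1a. No single NIP-labelled line was therefore without any of these loci, and 7 loci of the 50 were on in RNAi-OsYTHDC1A alone among the 10.

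LOC_Os10g24004 was high in a combination of its own. It had 48.6, 50.5 and 49.7 CPM in DJ, 27.7, 32.2 and 30.9 CPM in OE-OsYTHDF1A, 25, 23.9 and 24.4 CPM in osythdf3c, and 29.2, 25.6 and 21.5 CPM in osythdf3a. No library of another group was above 1.92 CPM. OE-OsYTHDF1A differed from the other 9 NIP-labelled lines by a log2 difference of 6.10 (SE 0.10, edgeR quasi-likelihood test, Benjamini-Hochberg adjusted p = 9.06e-49). Between the lines labelled DJ, osythdf3a differed from osythdf2a, which had 0.190 and 0.143 CPM, by 7.57 (SE 0.23) on the log2 scale. In that fit the locus passed the filter on low counts through osythdf3a alone, as osythdf1a had at most 0.313 CPM. The difference between these lines is therefore a description with no p.

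LOC_Os07g25550 was on in a single NIP-labelled line. It had 11, 13.1 and 13.4 CPM in osythdf4c, close to 14.4, 14.1 and 16.0 CPM in DJ, and 11.8 to 16.0 CPM in the libraries of the 3 lines labelled DJ. All other NIP-labelled libraries had at most 0.113 CPM. The fitted log2 difference of osythdf4c was 9.80 (SE 0.21), a description with no p, since the locus passed the filter on low counts through osythdf4c alone.

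The lines with few loci on each had a locus above all other NIP-labelled libraries, except osythdf3b. LOC_Os06g07250 had 9.55, 7.95 and 8.51 CPM in RNAi-OsYTHDF2C, where the highest other NIP-labelled library had 4.30 CPM, and 44.3 and 42.4 CPM in osythdf2a, above DJ at 12.6, 10.0 and 11.8 CPM. LOC_Os04g02640 had 10.9, 11.9 and 14.4 CPM in osythdf5c, LOC_Os09g24370 had 11, 10.6 and 10.9 CPM in osythdf1c, and LOC_Os12g08550 had 12.2, 11.2 and 11 CPM in osythdf2b. For these 3 the wild type DJ was lower, at no more than 7.38, 5.13 and 6.96 CPM. The log2 differences from the other 9 lines were 3.60 (SE 0.14), 3.38 (SE 0.11), 2.51 (SE 0.11) and 1.16 (SE 0.09) in the order given.

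In osythdf3b no locus was above all other lines by that rule, and LOC_Os03g41480 was below them. It had 0.290, 0.101 and 0.379 CPM in osythdf3b, where the lowest other NIP-labelled library had 0.422 CPM and RNAi-OsYTHDC1A had 23.1, 23.2 and 24.8 CPM. The log2 difference was -2.95 (SE 0.26, edgeR quasi-likelihood test, Benjamini-Hochberg adjusted p = 4.12e-15). The range of the other lines was wide, so this difference depends on the lines averaged.

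The loci lay on all 12 chromosomes as read from the locus IDs. Chromosome 4 held 27, chromosome 7 held 25 and chromosome 3 held 24, while chromosomes 5 and 8 held 6 each. Per 1000 locus rows at 1 CPM or more in each DJ library, the number ran from 3.45 on chromosome 5 to 15.3 on chromosome 7. On chromosome 11 it was 14.6. By set, 10 of the 29 loci on in the DJ-labelled lines only and 2 of the 94 had IDs of chromosome 11. Chromosome 3 held 17 of the 94 and 2 of the 29. Of all locus rows, 7.46% had IDs of chromosome 11 and 9.98% of chromosome 3. Of those at 1 CPM or more in each DJ library, 1162 and 2809 did. The sets were formed after the states were seen and some numbers are small, so a difference in place was not tested.

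**Figure D5:**
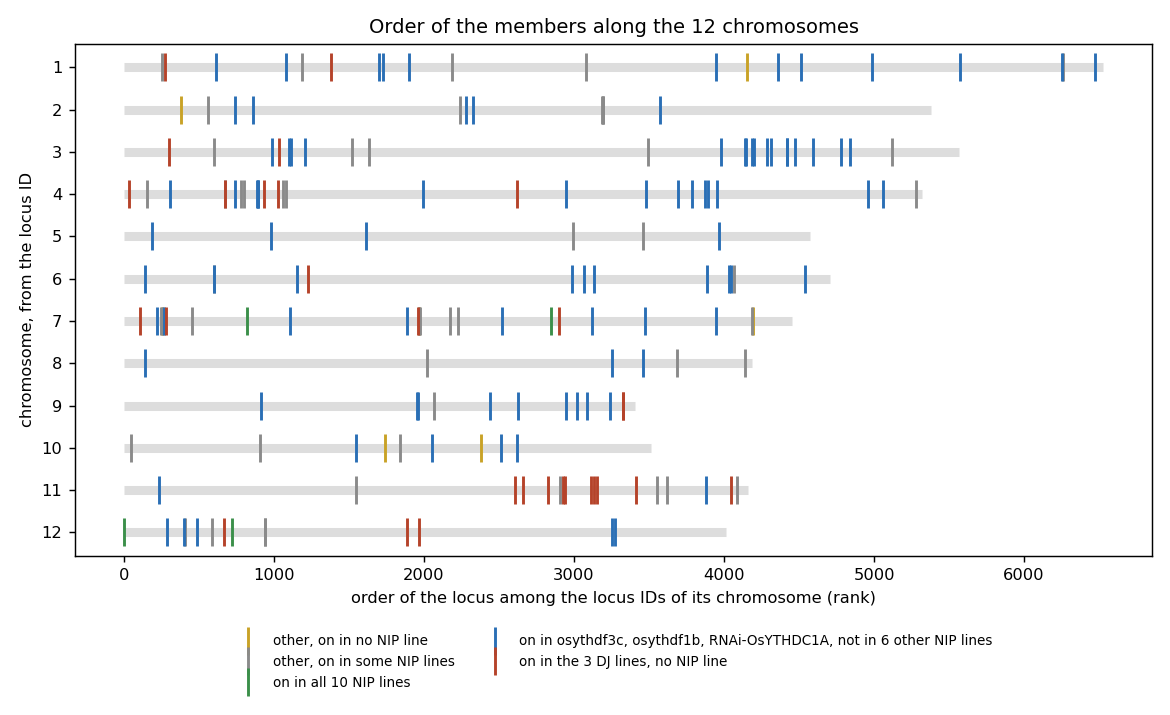
Order of the 184 loci among the locus IDs of their chromosome (horizontal axis, rank) on 12 chromosomes (vertical axis), coloured by pattern over the lines. Red marks, the 29 loci on in the DJ-labelled lines only, are most frequent on chromosome 11, with 10, and blue marks, the 94 loci on in osythdf3c, osythdf1b and RNAi-OsYTHDC1A, are most frequent on chromosome 3, with 17.

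Most loci had no near neighbour in the set. With at most 5 other locus rows allowed between neighbours, 31 of the 184 fell into 14 runs and 153 stood alone. Of the 17 neighbouring pairs 5 had the same on pattern over the 10 NIP-labelled lines, or 29.4%, against 18.9% of pairs on different chromosomes. The longest runs had 3 loci. The run from LOC_Os04g11050 to LOC_Os04g11120 held 1 pattern, and the run from LOC_Os02g36140 to LOC_Os02g36210, over 8 rows, held 3 patterns.

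Neighbours could differ sharply. In the run from LOC_Os07g23390 to LOC_Os07g23430, over 4 rows, LOC_Os07g23390 had 8.09, 5.52 and 7.65 CPM in osythdf1a and at most 0.0919 CPM in RNAi-OsYTHDC1A. LOC_Os07g23430 had at most 0.108 CPM in osythdf1a and 2.81, 2.16 and 3.01 CPM in RNAi-OsYTHDC1A. In DJ they had 8.61 to 8.83 CPM and 7.62 to 8.97 CPM, and the first had no count in NIP.

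Gene length, as implied by the ratio of the deposited counts to FPKM, had a median of 1541.5 bases over the 184 loci. It was 1344 bases over the 29 loci on in the DJ-labelled lines only. Over all rows at 3 CPM or more in each DJ library the median was 1890 bases. Their part in the levels was not tested.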

How the data were processed

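The authors deposited raw counts for each gene as whole numbers, and FPKM in another table. HISAT2, featureCounts and the build IRGSP-1.0 are named per the submitters' processing notes. Versions and any use of strand are not given in the sources here, so reads of overlapping loci and near-identical copies cannot be told apart. In each of the tables, 40 columns belong to no sample of the series as given and were left aside. CPM were computed from column totals, which were between 13541543 and 24099581 counts. Lengths came from the deposited FPKM, which equal scaled counts divided by a fixed length.

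The loci, lists and tests were chosen with earlier results of these data known. Tests used the counts and edgeR 4.0.16 (R 4.3.3) with TMM, filterByExpr, robust, two-sided quasi-likelihood, Benjamini-Hochberg over all rows tested, threshold 0.05 with no fold minimum. The standard error of a log2 difference was its size divided by the root of the F statistic. Neither wild type entered a test. Loci were named by rule: highest in DJ; nearest to the 3 CPM limit; the largest log2 difference each way per comparison (2 for osythdf3c, osythdf1b and RNAi-OsYTHDC1A, 1 otherwise) among those called, with at least 5 CPM on the higher side and no overlap of libraries; on or off in all 13 lines; highest in DJ of the 3 most frequent patterns; ends of the 3 longest runs. No locus qualified as lower in a NIP-labelled line other than osythdf3b.

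All 43 replicate pairs differed by more than counting noise (chi-square per degree of freedom 1.55 to 110), so none were merged as technical repeats. Only in the comparison of the DJ-labelled with the NIP-labelled lines were the libraries of a line summed, so that the line was the unit. On simulated data, the test of osythdf3c recovered 90% of loci changed 1.5-fold and 100% of those changed 2-fold, with 10 unchanged called among 26377 genes. That of osythdf1a against osythdf2a recovered 62% and 92%, and that of the DJ-labelled against the NIP-labelled lines 4% and 12%, with 90% at 8-fold. The alternatives, among them DESeq2 1.42.0, are given in the closing section.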

Additional observations from a re-analysis of the deposited data

How the results depend on the processing

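No call or direction of a named locus changed, in 550 of 550 alternative values. These loci were named for being called with large differences and no overlap of libraries, so their stability follows in part from that choice. The values include loci whose differences are given above as descriptions. Counts of loci called all stayed within 1.5 times, leave-one-out and DESeq2 included. Under scaling by library totals the median log2 difference over all rows was -0.31 in OE-OsYTHDF1A (-0.02 in the reported fit) and 0.25 in RNAi-OsYTHDC1A (0.02), each against the other NIP-labelled lines, and -0.39 for osythdf1a against osythdf2a (-0.04). This scaling turned the split over all rows in osythdf3c from 11211 higher and 10029 lower into 14011 and 7474, and in RNAi-OsYTHDC1A from 10181 and 8812 into 15321 and 4696, while the split of the loci was 132 higher and 6 lower under either scaling in osythdf3c, and went from 138 and 5 to 139 and 2 in RNAi-OsYTHDC1A.

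The replicate numbers do not pair the libraries: same-numbered libraries of different lines had deviations with a median correlation of 0.0054 (range -0.39 to 0.42), and 11 of 30 libraries correlated best with their own number. With the number as a replicate block, the loci called were 138 in osythdf3c, 138 in osythdf1b, 143 in RNAi-OsYTHDC1A and 166 between osythdf1a and osythdf2a, against 138, 138, 143 and 164 without it.

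The number of loci, 184, became 410 with DJ at 1 CPM or more, 113 at 5 CPM or more and 35 with no NIP count. Shares on and off depend on their limits, as the limits' own construction implies. With on set at 3 CPM the share on was 52.2% in osythdf3c, 4.89% in osythdf1c, 21.2% in osythdf1a, 4.89% in RNAi-OsYTHDF2C, 64.7% in osythdf2a, 3.26% in osythdf5c, 1.63% in osythdf3b, 17.4% in osythdf4c, 44.6% in RNAi-OsYTHDC1A, 25% in osythdf3a, 5.43% in osythdf2b and 52.7% in osythdf1b. With on at 0.5 CPM it was 17.9% in RNAi-OsYTHDF2C, 58.2% in osythdf4c, 45.1% in osythdf3a and 19.6% in osythdf2b. With off set at 0 counts the share off was 7.07% in osythdf3c, 16.3% in osythdf1c, 12.5% in osythdf1a, 9.24% in RNAi-OsYTHDF2C, 20.1% in osythdf5c, 22.3% in osythdf3b, 16.8% in osythdf4c, 4.35% in RNAi-OsYTHDC1A, 2.72% in osythdf3a, 7.61% in osythdf2b, 6.52% in osythdf1b and 21.2% in OE-OsYTHDF1A. Over the 410 loci the share on was 51.5% in osythdf3c, 22.0% in osythdf1a, 79.0% in osythdf2a, 28.0% in osythdf4c, 59.8% in RNAi-OsYTHDC1A, 26.8% in osythdf3a and 55.4% in osythdf1b, and the share off 72.9% in osythdf5c, 29.3% in osythdf3a and 46.6% in osythdf2b. Over the 113 it was 98.2% on in osythdf2a and 44.2% on in osythdf3a. Over the 35 with no NIP count, the share on was 45.7% in osythdf3c, 51.4% in RNAi-OsYTHDC1A, 51.4% in osythdf1b, 28.6% in osythdf4c, 37.1% in osythdf1a, 42.9% in osythdf3a and 0% in osythdf1c, RNAi-OsYTHDF2C, osythdf5c, osythdf3b, osythdf2b and OE-OsYTHDF1A. The share off over those 35 was 45.7% in osythdf3c, 85.7% in osythdf1c, 80% in RNAi-OsYTHDF2C, 88.6% in osythdf5c, osythdf3b and OE-OsYTHDF1A, 54.3% in osythdf4c, 40% in RNAi-OsYTHDC1A, 37.1% in osythdf3a, 68.6% in osythdf2b and 40% in osythdf1b. Without 1 replicate the share off in osythdf1c was 66.3% to 72.3%, against 65.8%. An off call rests on at most 3 counts, so at these depths a level under about that count cannot be told from 0.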
